A study of Mus musculus with 10 samples.

Results

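Pecam1, Gp9, Itga2b, Cdh5 and Tspan14 are 5 genes best known from platelets and from the endothelium that lines blood vessels. Their levels were examined in J558, an established myeloma line of mouse that resembles plasma cells, after retroviral delivery of Pax5. They are 5 of the 19937 genes measured, and each is represented by 1 probe set of a whole-transcript array. The 5 were chosen by these same array levels, as genes lowered by a Pax5 vector relative to empty vector, so every value against empty vector is given as a description with no test. The data bear that name out for 3 of the 5. Pecam1, Gp9 and Tspan14 were lower with both forms of Pax5, whereas Itga2b lay near its empty-vector level and Cdh5 was higher with wild-type Pax5.

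The 4 cultures with Pax5 G183S, the 3 with wild-type Pax5 and the 3 with empty vector all carried the same MSCV retroviral backbone with puromycin resistance and green fluorescent protein (GFP). In G183S a serine takes the place of a glycine in the octapeptide of Pax5, a short motif through which Pax5 binds Groucho-family corepressors. All cultures were held in puromycin for 5 to 7 days and sorted by flow cytometry for GFP and surface IgM before RNA was extracted. The labels call the replicates independent and give no clone, so the results describe 1 cell line, and the empty-vector cells went through the same infection, selection and sort.

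Pax5 is the transcription factor that holds cells to the B lineage. It switches on B-cell genes and holds down genes that belong to other blood lineages, and plasma cells lose it as they form. Pecam1 (CD31) is an immunoglobulin-superfamily adhesion receptor of endothelium, platelets and leukocytes that carries inhibitory tyrosine motifs in its tail. Gp9 and Itga2b are platelet receptor subunits. Gp9 belongs to the glycoprotein Ib-IX-V receptor for von Willebrand factor, and Itga2b (CD41) pairs with the Itgb3 chain to form the platelet fibrinogen receptor. Cdh5, or VE-cadherin, joins endothelial cells at their adherens junctions. Tspan14 is a tetraspanin of the TspanC8 subgroup, which escorts the membrane protease Adam10 to the cell surface, and it is expressed far more widely than in platelets and endothelium.

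RefSeq promoter sequences (GRCm38.p6, 250 bases before to 50 after a gene's start) were at hand for 3 of the 5 genes. They are shown because Gp9 and Tspan14 moved with Pax5 and Itga2b did not. Capitals mark the letters GATAA, the core bound by GATA factors, and GGAAG, a core bound by ETS factors, in either strand; both families are textbook regulators of platelet genes.
Gp9 (chr6:87777820-87778119, plus strand): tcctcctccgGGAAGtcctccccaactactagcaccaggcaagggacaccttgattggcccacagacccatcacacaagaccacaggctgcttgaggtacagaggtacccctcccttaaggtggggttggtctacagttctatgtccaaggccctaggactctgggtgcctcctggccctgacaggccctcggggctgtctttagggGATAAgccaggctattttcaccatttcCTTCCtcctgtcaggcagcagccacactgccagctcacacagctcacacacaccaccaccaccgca
Itga2b (chr11:102469834-102470133, minus strand): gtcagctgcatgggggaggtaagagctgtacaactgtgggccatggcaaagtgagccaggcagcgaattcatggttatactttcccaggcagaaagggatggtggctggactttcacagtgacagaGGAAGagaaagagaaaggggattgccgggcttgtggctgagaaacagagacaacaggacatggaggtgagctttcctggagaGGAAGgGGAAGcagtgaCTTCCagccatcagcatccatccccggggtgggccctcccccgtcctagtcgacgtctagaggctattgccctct
Tspan14 (chr14:40966847-40967146, minus strand): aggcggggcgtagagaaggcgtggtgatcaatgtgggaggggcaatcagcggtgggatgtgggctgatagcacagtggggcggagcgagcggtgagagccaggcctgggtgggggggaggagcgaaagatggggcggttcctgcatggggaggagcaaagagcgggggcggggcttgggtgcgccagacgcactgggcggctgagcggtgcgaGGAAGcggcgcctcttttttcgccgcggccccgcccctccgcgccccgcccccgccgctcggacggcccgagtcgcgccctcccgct

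The Gp9 window held 1 GATAA and 2 GGAAG matches, counting both strands. Itga2b had 4 GGAAG matches and no GATAA, and the Tspan14 window above had 1 GGAAG. A second Tspan14 start in the same table had 2 GGAAG matches. Among 32851 mouse promoter windows of this length, 25.4% held GATAA and 71.4% held GGAAG, so neither match sets these windows apart. The letters GCGTGAC, the core of the Pax5 site, were in 2.1% of all windows and in none of these. GGGCGG, the GC box of housekeeping-type promoters, occurred 6 times in the Tspan14 window shown above. It occurred 0 times at the second Tspan14 start and 0 times in the windows of Gp9 and Itga2b (35.7% of all windows held it). TGTGGT, the Runx core, was found 1 time in the Gp9 window and in 16.8% of all windows.

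Pecam1 transcript was lower in every array with a Pax5 vector than in any with empty vector. On the log2 scale of the arrays its probe set read 7.40, 6.76, 7.24 and 7.09 with G183S, 6.66, 7.60 and 7.13 with wild type, and 8.30, 8.82 and 8.88 with empty vector. The lowest empty-vector array lay above the highest Pax5 array, and the arrays of the Pax5 forms were interleaved. Against empty vector Pecam1 was 2.91-fold lower with G183S (log2 difference -1.54 ± 0.23 SE) and 2.90-fold lower with wild type (-1.54 ± 0.25 SE). In RNA pooled from the sorted cells of each culture, fewer cells with a transcript and less transcript per cell cannot be told apart.

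Gp9 fell outside the empty-vector range in the same way. It read 7.32, 6.95, 7.07 and 7.18 with G183S, 7.28, 7.54 and 7.70 with wild type, and 8.42, 8.71 and 8.69 with empty vector. The order of the group means ran from G183S (7.13 ± 0.16 SD) through wild type (7.51 ± 0.21) to empty vector (8.61 ± 0.16), and only G183S replicate 1 overlapped with the wild-type arrays. The log2 difference from empty vector was -1.48 ± 0.12 SE with G183S and -1.10 ± 0.13 SE with wild type. Of the other subunits of the glycoprotein Ib-IX-V receptor, Gp5 was measured by a single-gene probe set. Gp5 averaged 7.32 ± 0.14 with G183S, 7.10 ± 0.05 with wild type and 7.07 ± 0.16 with empty vector (log2 units, SD), and none of its differences passed limma's threshold (adjusted p = 0.344 for G183S and 0.944 for wild type against empty vector).

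Tspan14 was lower with both Pax5 forms as well. It read 9.96, 9.77, 10.37 and 10.04 with G183S, 9.66, 10.11 and 10.04 with wild type, and 11.27, 11.42 and 11.41 with empty vector. The Pax5 arrays overlapped with each other and lay clear of the empty-vector arrays. Tspan14 was 2.51-fold lower with G183S (log2 difference -1.33 ± 0.14 SE) and 2.70-fold lower with wild type (-1.43 ± 0.15 SE). Its partner Adam10 averaged 10.76 ± 0.08 with G183S, 10.65 ± 0.08 with wild type and 10.61 ± 0.04 with empty vector (limma adjusted p = 0.412 and 0.798 against empty vector). The other TspanC8 genes Tspan5, Tspan10, Tspan15, Tspan17 and Tspan33 did not pass in any comparison; the largest of their differences from empty vector was that of Tspan15 with G183S (-0.67, limma adjusted p = 0.079). Among 25 measured tetraspanin genes other than Tspan14, 0 passed with either Pax5 form (0.311% of all genes did with G183S and 1.88% with wild type). At an unadjusted p under 0.05 in limma, 6 differed with G183S and 3 with wild type, against 11.3% and 15.9% of all genes. The median log2 difference of the 25 genes was -0.02 with G183S and 0.01 with wild type, against 0.00 and 0.01 over all genes. The median hides single genes: Tspan13 averaged 11.23 ± 0.82 with G183S, 10.90 ± 0.87 with wild type and 12.22 ± 0.10 with empty vector (log2 units, SD). It lay below empty vector without overlap with wild type (log2 difference -1.32 ± 0.49 SE, limma adjusted p = 0.226), overlapped with G183S (-0.99 ± 0.46 SE, adjusted p = 0.469) and did not pass. Of the 25 genes, 2 with G183S and 6 with wild type lay below empty vector without overlap, and 1 and 2 lay above. Over all genes 6.56% and 12.5% lay below without overlap, and 5.02% and 11.5% above.

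Itga2b did not follow the name of the group. It read 7.18, 8.24, 8.11 and 8.30 with G183S, 7.38, 7.49 and 7.76 with wild type, and 8.14, 7.72 and 7.67 with empty vector. The groups overlapped, and the G183S arrays held both the lowest value (replicate 1) and the highest. The log2 difference from empty vector was 0.11 ± 0.25 SE with G183S and -0.30 ± 0.27 SE with wild type. The partner chain Itgb3 did change, upward. Itgb3 read 7.63, 7.52, 7.27 and 7.20 with G183S, 8.26, 7.68 and 7.75 with wild type, and 6.82, 7.00 and 7.04 with empty vector. Itgb3 rose with wild type by 0.95 ± 0.16 SE on the log2 scale (limma adjusted p = 0.0248). With G183S the value was 0.45 ± 0.15 SE and did not pass (adjusted p = 0.255). Fermt3 (kindlin-3), which activates the integrin from inside the cell, fell with wild type (-0.65 ± 0.10 SE, adjusted p = 0.0184) and did not pass with G183S (-0.31, adjusted p = 0.194). Itgav, Tln1, Rasgrp2, Rap1b and Apbb1ip, which pair with Itgb3 or act in integrin activation, did not pass.

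Cdh5 ran against the name of the group. It read 8.37, 8.15, 7.08 and 7.98 with G183S, 9.27, 8.65 and 8.42 with wild type, and 6.89, 7.72 and 7.70 with empty vector. All wild-type arrays were above all arrays of the other groups, and G183S replicate 3 lay within the empty-vector range. Relative to empty vector Cdh5 was 1.37-fold higher with G183S (log2 difference 0.46 ± 0.33 SE) and 2.54-fold higher with wild type (1.34 ± 0.35 SE). The junction partners Ctnnb1, Ctnnd1, Ctnna1 and Jup and the receptor Kdr differed from empty vector by at most 0.17 log2 units in size and did not pass. Ptprb, the phosphatase that associates with VE-cadherin, averaged 7.82 ± 0.74 with G183S, 8.39 ± 0.38 with wild type and 7.14 ± 0.30 with empty vector, and did not pass either (wild-type difference 1.25 ± 0.38 SE, limma adjusted p = 0.137).

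**Figure D1:**
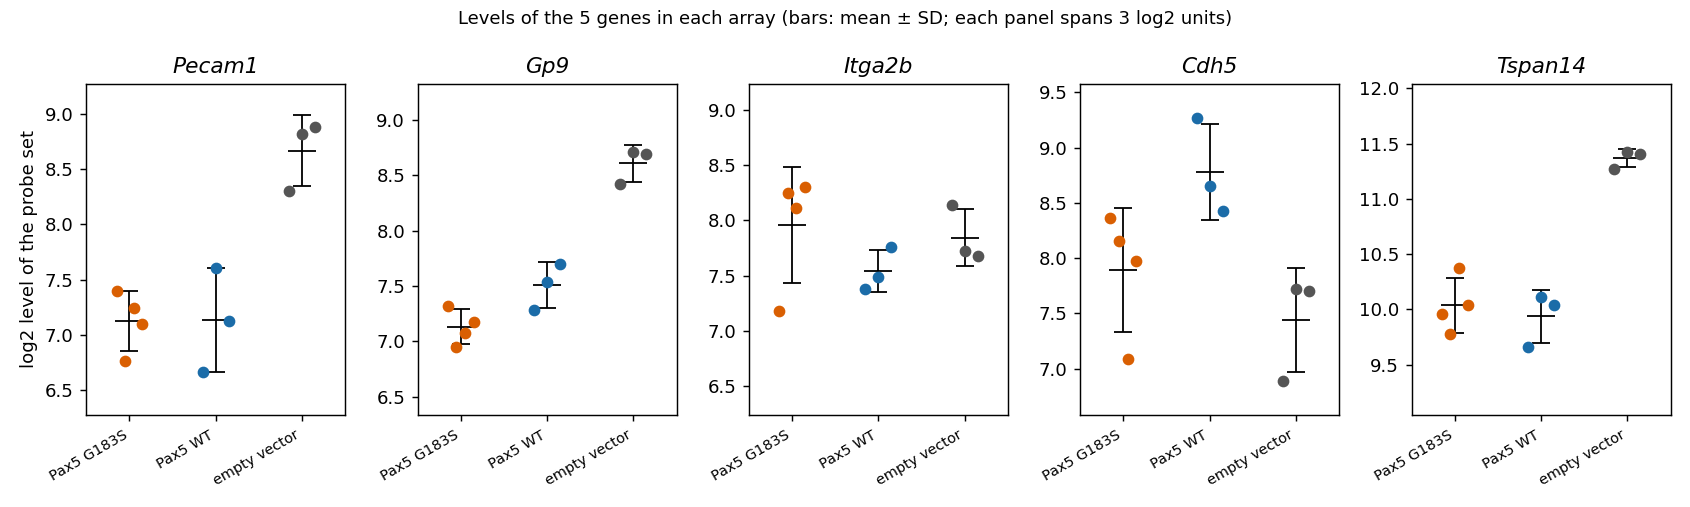
Log2 level of each gene's probe set (y axis, each panel spanning the same number of log2 units) in every array of the Pax5 G183S, Pax5 WT and empty-vector groups (x axis); points are arrays and bars are the mean ± SD. Pecam1, Gp9 and Tspan14 lie lower in all Pax5 arrays than in the empty-vector arrays, Itga2b overlaps between groups and Cdh5 is highest with Pax5 WT.

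Counted over the group, 3 of the 5 genes lay below empty vector without overlap with G183S and 3 with wild type, while 0 lay above with G183S and 1, Cdh5, lay above with wild type. Over all 19937 genes the groups did not overlap, in the lower direction, for 6.56% with G183S and 12.5% with wild type, and in the higher direction for 5.02% with G183S and 11.5% with wild type. These counts follow from how the genes were chosen. The comparisons with empty vector share the same 3 empty-vector arrays, and the differences of the G183S and wild-type cultures are therefore not independent of each other.

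The direct comparison of G183S with wild type was not used to choose the genes. In limma's fit over all genes, 0 of the 5 passed an adjusted p of 0.05, as did 0 of 19937 genes (0%); at an unadjusted p under 0.05, 9.48% of all genes and Gp9 and Cdh5 of the 5 differed. Gp9 was lower with G183S by a log2 difference of -0.38 ± 0.12 SE (95% interval -0.65 to -0.10, limma adjusted p = 0.49). Cdh5 was lower with G183S by -0.89 ± 0.33 SE (interval -1.62 to -0.16, adjusted p = 0.505), and its groups did not overlap, as for 4.17% of all genes in that direction. Pecam1 differed by -0.01 (interval -0.52 to 0.51, adjusted p = 0.997), Tspan14 by 0.10 (-0.22 to 0.42, adjusted p = 0.824) and Itga2b by 0.42 (-0.15 to 0.98, adjusted p = 0.596). The intervals for Pecam1 and Tspan14 leave room for differences of up to about 0.52 and 0.42 log2 units, which are smaller than the fall of either gene below empty vector. G183S replicate 1 pulled the Itga2b value down. Without that array the difference was 0.68 and passed (limma adjusted p = 0.0287), in a fit that called 1113 of the 19937 genes. Over all left-out arrays it ran from 0.30 to 0.68.

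**Figure D2:**
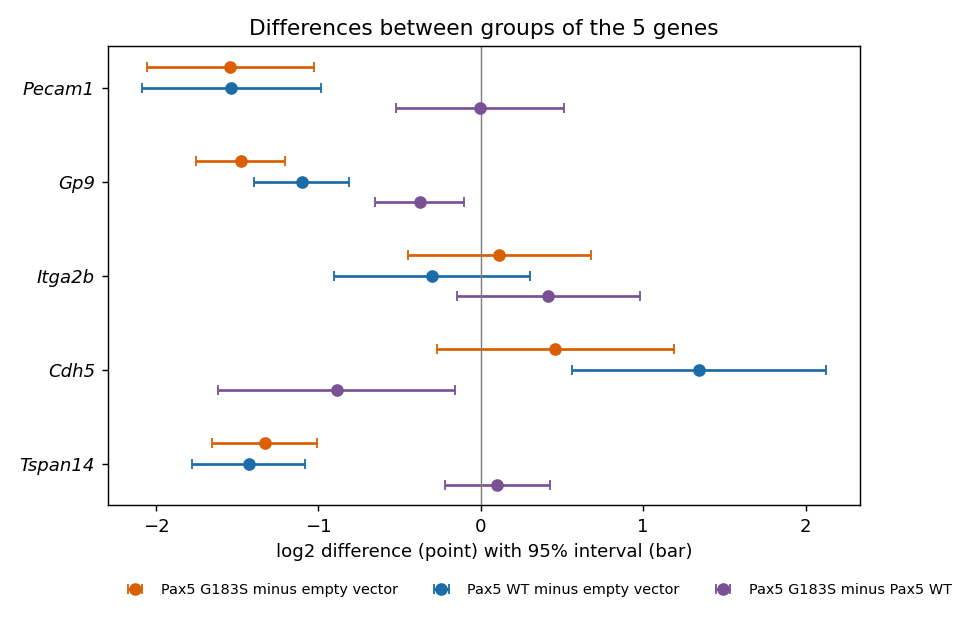
Log2 difference (x axis) with its 95% interval for each gene in 3 comparisons, Pax5 G183S minus empty vector, Pax5 WT minus empty vector, and Pax5 G183S minus Pax5 WT. Pecam1, Gp9 and Tspan14 sit near -1.1 to -1.54 against empty vector with both forms. Between the forms, the intervals of Pecam1 and Tspan14 include 0. That of Gp9 runs from -0.65 to -0.10 and leaves 0 out, though Gp9 did not pass (limma adjusted p = 0.49).

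The 7 arrays with a Pax5 vector also differed in their Pax5 level, which was not used to choose the genes. Pax5 read 10.22, 10.36, 9.38 and 9.96 log2 units with G183S, 10.67, 10.09 and 10.05 with wild type, and 7.10, 6.84 and 7.01 with empty vector. It averaged 9.98 ± 0.43 with G183S, 10.27 ± 0.35 with wild type and 6.98 ± 0.13 with empty vector (SD; limma adjusted p = 0.00117 and 0.00108 against empty vector), and the Pax5 forms overlapped (difference -0.29 ± 0.23 SE, adjusted p = 0.674). Tspan14 was lowest where Pax5 was highest (wild-type replicate 1) and highest where Pax5 was lowest (G183S replicate 3). Over the 7 arrays Pearson's r was -0.97 (exact permutation p = 0.0010, adjusted p = 0.0050 over 5 genes) and Spearman's rho -0.89 (exact permutation p = 0.0123, adjusted p = 0.0615). Without those 2 arrays, the farthest from the median Pax5 level, r was -0.86 and its adjusted p (exact permutation) was no longer under 0.05. Of the 19936 genes other than Pax5, 0.0602% had a negative r as large.

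For Cdh5 the relation ran the other way and was less firm. Pearson's r was 0.90 (exact permutation p = 0.0190, adjusted p = 0.0476) and rho 0.68 (exact permutation p = 0.1095, adjusted p = 0.2738), and r was 0.01 without the same 2 arrays, so it rests on them. A positive r as large was found for 0.888% of the genes other than Pax5. Pecam1 (r = -0.52, rho = -0.43, exact permutation p = 0.2262 and 0.3536), Itga2b (r = -0.45, rho = -0.50, p = 0.3286 and 0.2667) and Gp9 (r = 0.10, rho = 0.00, p = 0.8454 and 1) did not pass, with adjusted p from 0.3770 to 0.8454 for r. Without the same 2 arrays their r was -0.38, -0.07 and -0.55.

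**Figure D3:**
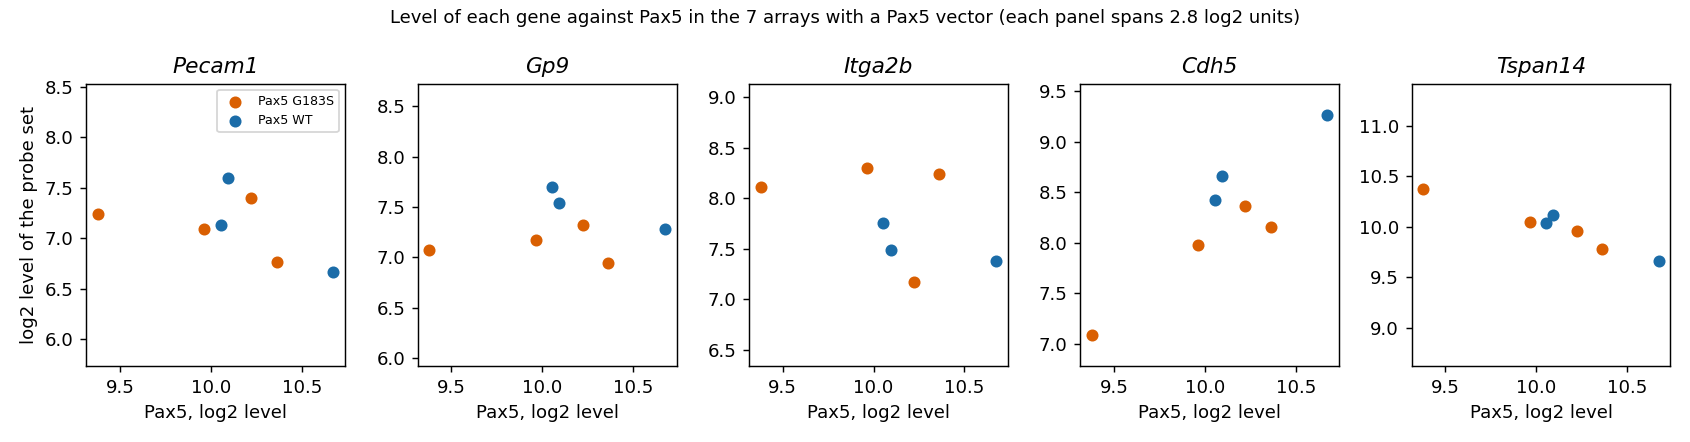
Log2 level of each gene (y axis, panels of equal span) against the log2 level of Pax5 (x axis) in the 7 arrays with a Pax5 vector, coloured by form. Tspan14 falls along the Pax5 axis (r = -0.97), Cdh5 climbs mainly through its end points (r = 0.90), and Gp9 shows no slope (r = 0.10).

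After the group means were taken off, the genes did not vary as one block over the 10 arrays. Pecam1 deviated with Gp9 (r = 0.77) and with Tspan14 (r = 0.72), and Gp9 with Tspan14 less closely (r = 0.49). Cdh5 deviated against Tspan14 (r = -0.65) and Itga2b against Cdh5 (r = -0.57), Pecam1 (r = -0.45) and Gp9 (r = -0.43). These values describe deviations that share the array, its RNA and its normalization, and carry no test.

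The genes whose levels followed each member most closely over the 10 arrays came from many functions. For Pecam1 they were Rom1 (r = 0.99), a tetraspanin-family gene of photoreceptors that was not on the tetraspanin list (log2 difference -1.19 with G183S and -1.13 with wild type), Tspyl4 (0.98) and Vps26b (0.98), a retromer subunit. Vps26b also headed the list for Tspan14 (r = 0.99), followed by Pgm1 (0.99), a phosphoglucomutase, and Trim26 (0.98). Vps26b averaged 9.84 with G183S, 9.84 with wild type and 10.88 with empty vector. For Gp9 they were Cdc42se2 (0.98), Sncb (0.97) and Zfp523 (0.95). For Itga2b the closest were Cfl2 (0.99), Elavl3 (0.99) and Ehhadh (0.99), and for Cdh5 Fancm (0.98), Mgarp (0.98) and Ube2s (0.97). With the group means removed, the likeness of Zfp523 to Gp9 was -0.14, while that of Cfl2 to Itga2b stayed at 0.99.

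Of the 10 genes that flank the members in the RefSeq gene table, 1 passed the test in any comparison, Sh2d4b next to Tspan14, which encodes an SH2-domain protein. Over all genes 0.311% passed with G183S and 1.88% with wild type against empty vector, and 0% between the forms. It averaged 7.59 ± 0.30 with G183S, 7.34 ± 0.16 with wild type and 8.47 ± 0.12 with empty vector (log2 units, SD). It fell with wild type by 1.13 ± 0.16 SE on the log2 scale (limma adjusted p = 0.0159). Leaving out empty-vector replicate 2 or 3 or wild-type replicate 1 took that call away (highest limma adjusted p = 0.0913). With G183S the value was -0.89 ± 0.15 SE and did not pass (adjusted p = 0.0504). On the other side of Tspan14, Prxl2a averaged 7.07 ± 0.46 with G183S, 8.09 ± 1.14 with wild type and 6.75 ± 0.25 with empty vector, and did not pass. Tex2 and Milr1 beside Pecam1, Efcc1 and Rab43 beside Gp9, Fam171a2 and Gpatch8 beside Itga2b, and Cdh11 and Bean1 beside Cdh5 did not pass in any comparison. Milr1 (-0.24 with G183S and -0.60 with wild type), Tex2 (-0.22 and -0.32) and Rab43 (-0.36 and -0.43) had values on the same side of empty vector as their neighbouring member. So did Sh2d4b, Efcc1 (-0.27 and -0.11) and Cdh11 (0.07 and 0.02). Prxl2a (0.33 and 1.34), Bean1 (-0.10 and -0.0026) and Fam171a2 (-0.08 and 0.10) had values on the other side. Gpatch8 (-0.12 and -0.24) was on the side of Itga2b with wild type only. The median log2 difference over all genes was -0.0033 with G183S and 0.0131 with wild type, so values on either side are common.

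Few other genes of platelets and endothelium passed the test, and most read below the median level of all probe sets (23 of 31 platelet and 26 of 35 endothelial genes). Whether a low level hid falls was not tested. Of 31 measured platelet genes outside the 5, 0 passed limma's threshold with G183S (0.311% of all genes did) and 2 with wild type (1.88% of all genes did), Itgb3 upward and Fermt3 downward. Their median log2 difference was 0.03 with G183S and 0.02 with wild type. Fermt3 and Ecscr also lay below empty vector without overlap with G183S (-0.31 and -0.47, adjusted p = 0.194 and 0.106). P2rx1, a platelet ATP receptor, and Cd93, an endothelial lectin-like receptor, lay below without overlap with wild type and did not pass (-0.74 and -0.66, adjusted p = 0.173 and 0.131). With wild type, 3 platelet and 2 endothelial genes lay below without overlap, and 4 and 3 lay above. With G183S, 3 and 2 lay below, and 3 and 1 above. Over all genes the shares below and above were 12.5% and 11.5% with wild type, and 6.56% and 5.02% with G183S. Other examples that did not pass are Plek (0.51, adjusted p = 0.103) and Bin2 (-0.55, adjusted p = 0.171) with wild type. Of 35 endothelial genes, 0 passed with G183S and 1 with wild type, Ecscr, an endothelial surface protein gene, which was lower (-0.73 ± 0.12 SE, adjusted p = 0.0216). The median was 0.02 with G183S and 0.05 with wild type. At an unadjusted p under 0.05 in limma, 4 platelet and 2 endothelial genes differed with G183S, and 6 and 3 with wild type, where 11.3% of all genes did with G183S and 15.9% with wild type. Between G183S and wild type 0 platelet and 0 endothelial genes passed, with 8 and 2 at an unadjusted p under 0.05 (9.48% of all genes). The Itgb3, Fermt3 and Ecscr calls were each lost without any 1 of the empty-vector arrays or wild-type replicate 1 (highest limma adjusted p = 0.116, 0.0925 and 0.115), with their directions kept.

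**Figure D4:**
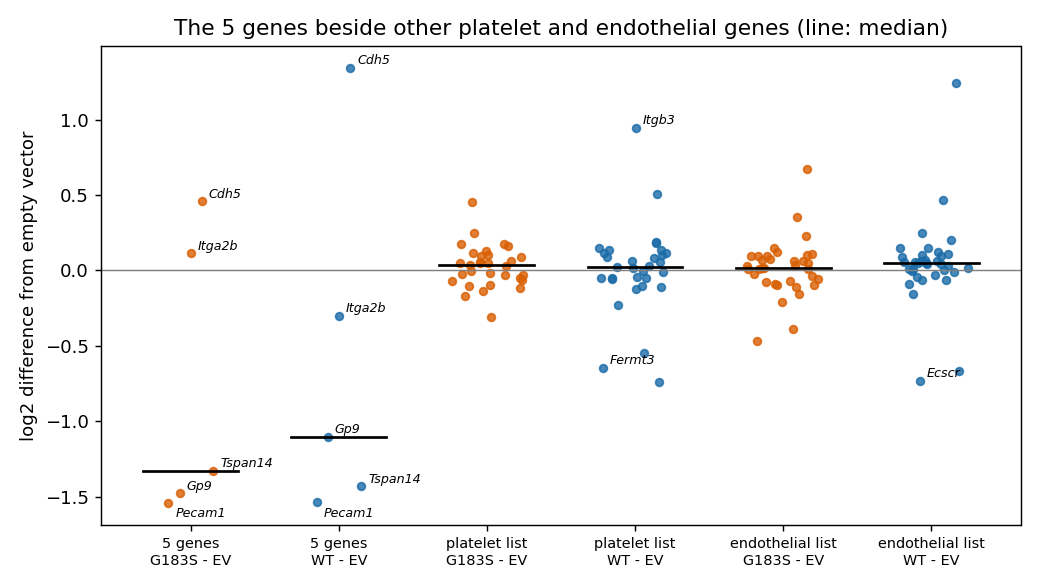
Log2 difference from empty vector (y axis) with Pax5 G183S and Pax5 WT for the 5 genes, 31 other platelet genes and 35 other endothelial genes (x axis); points are genes and black lines are medians, with the 5 genes and the list genes past the threshold named. The medians of the other platelet and endothelial genes lie between 0.02 and 0.05.

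Among 16 measured transcription factors of the megakaryocyte, endothelial and early blood programmes, 1 passed with each Pax5 form. Over all genes 0.311% passed with G183S and 1.88% with wild type. At an unadjusted p under 0.05 in limma, 2 of the 16 differed with each form, against 11.3% and 15.9% of all genes. Lyl1, a basic helix-loop-helix factor of blood progenitors, read 10.68, 10.38, 10.60 and 10.67 with G183S, 10.65, 10.68 and 10.47 with wild type, and 11.27, 11.44 and 11.26 with empty vector. It fell by 0.74 ± 0.09 SE with G183S (limma adjusted p = 0.0129) and by 0.73 ± 0.10 SE with wild type (adjusted p = 0.0126) on the log2 scale. Both Lyl1 calls were lost without empty-vector replicate 2 or 3 (highest adjusted p = 0.089 and 0.0725). Lmo2, its partner in blood progenitors, averaged 11.17 ± 0.66 with G183S, 12.05 ± 0.28 with wild type and 10.48 ± 0.42 with empty vector and did not pass (wild-type difference 1.57, limma adjusted p = 0.0596). Gata1, Gata2, Fli1, Erg, Tal1, Runx1, Nfe2 and Gfi1b, which drive platelet or endothelial genes, did not pass in any comparison. Of the signalling partners of Pecam1, the phosphatase genes Ptpn6 and Ptpn11, the lipid phosphatase gene Inpp5d and the ligand gene Cd177 did not pass either.

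Markers of the plasma-cell label were present in all groups. All 8 measured plasma-cell markers, Sdc1 and Xbp1 among them, read at or above 6.89, the median level of all probe sets, in each group. Their values nonetheless leaned below empty vector, in 8 of 8 with G183S (median log2 difference -0.40) and in 6 of 8 with wild type (-0.24). The medians over all genes were -0.0033 and 0.0131. None of the 8 passed the adjusted threshold (0.311% of all genes did with G183S and 1.88% with wild type). At an unadjusted p under 0.05 in limma, 4 differed with G183S and 1 with wild type, against 11.3% and 15.9% of all genes. With G183S the largest differences were those of Tnfrsf17, the receptor BCMA (-2.08 ± 0.51 SE, limma adjusted p = 0.119), and Sdc1, or CD138 (-1.14 ± 0.28 SE, adjusted p = 0.119), both without overlap with empty vector. With wild type Tnfrsf17 differed by -0.78 (adjusted p = 0.54) and Sdc1 by -0.64 (adjusted p = 0.339). Of the 31 platelet genes only 8 with G183S, 8 with wild type and 9 with empty vector read at or above 6.89. In the same order, the list's mean level per array ranged from 6.48 to 6.63, 6.46 to 6.57 and 6.50 to 6.53. Pf4, the platelet chemokine, averaged 4.59 with G183S, 4.54 with wild type and 4.60 with empty vector, and Vwf averaged 6.69, 6.73 and 6.58. Of the 35 endothelial genes 9, 10 and 8 reached that level, with list means of 6.39 to 6.51, 6.43 to 6.50 and 6.39 to 6.44. Of the markers of other blood cells, 3 of 13 myeloid genes with G183S, 0 with wild type and 2 with empty vector reached it, as did 1, 1 and 2 of 9 T-cell genes and 2, 3 and 4 of 8 erythroid genes. Of these only Cd3g, a chain of the T-cell receptor complex, passed (0.311% of all genes did with G183S and 1.88% with wild type). It averaged 5.02 with G183S, 5.08 with wild type and 6.17 with empty vector, below that median level in every group (limma adjusted p = 0.0171 and 0.0172). Cd4, the T-helper coreceptor, read 6.65, 6.40, 6.77 and 6.54 with G183S, 6.37, 6.71 and 6.74 with wild type, and 7.09, 9.29 and 7.60 with empty vector. Its groups did not overlap, the empty-vector arrays were widely spread, and the differences did not pass (-1.41 with G183S and -1.39 with wild type, limma adjusted p = 0.181 and 0.15). Of the myeloid genes, Mpo (-0.07 with G183S and -0.95 with wild type) and Adgre1 (0.21 and -0.95) lay below empty vector without overlap with wild type and did not pass. The part of other cells, and of the plasma-cell markers, in the results on the 5 genes was not tested.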

How the data were processed

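For 10 Affymetrix whole-transcript arrays, log2 signals per probe set were used as deposited. Per the submitters' processing notes, RMA and Partek were used; no version is given in the sources used here. Because RMA equalizes the distribution of values between arrays, a change common to most transcripts would be hidden. Scanner files and scan batches were not used here. Of 34760 probe sets, 21640 had 1 gene symbol in the platform annotation, 1321 had several and 11799 are unnamed here; the probe set with the highest mean was kept per gene (19937 genes). Each member had 1 probe set.

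All genes were fitted in limma 3.58.1 (R 4.3.3) with 1 coefficient per group over all 10 arrays, empirical Bayes moderation and two-sided Benjamini-Hochberg adjustment over all genes, with calls at 0.05; the fit was tested on simulated arrays. Correlations with Pax5 used exact permutations of 7 arrays (5040 orders). Figures used matplotlib 3.10.9 in Python 3.11.15.

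Members and gene lists were chosen with earlier results of these data known. Named genes are the members, Pax5, direct partners and regulators, list genes past the threshold or with the smallest adjusted p, the 3 genes most like each member and the nearest measured neighbours. Gp1ba, Gp1bb, Gp6, Selp, Ptgs1 and Cd38 had no probe set with a single symbol and were not used here. The main fit did not pair arrays by replicate number. Alternatives were other moderation, weights, centring, filters, sample sets, a replicate block and leaving out each array.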

Additional observations from a re-analysis of the deposited data

Results flagged for a closer look

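Itga2b in G183S replicate 1, at 7.18 log2 units, stood apart from the other G183S arrays, which lay between 8.11 and 8.30. The gap made up 0.83 of the group's range. Of 9 genes examined in this way in the G183S group, chance alone would set apart about 1 in 20. Limma's array weights gave this array the lowest weight of the 10 (0.33).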

How the results depend on the processing

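The log2 differences of Pecam1, Gp9 and Tspan14 from empty vector kept their sign under all alternatives and all left-out arrays: without 1 array they ran from -1.73 to -1.42, -1.57 to -1.42 and -1.44 to -1.24 with G183S, and from -1.77 to -1.30, -1.20 to -0.99 and -1.52 to -1.29 with wild type. Those of Cdh5 ran from 0.19 to 0.73 and 1.07 to 1.52, and those of Itga2b from -0.00 to 0.37 and -0.41 to -0.15.

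Between G183S and wild type, signs near 0 turned: Pecam1 was 0.0046 with a replicate block, -0.45 with array weights (limma adjusted p = 0.14) and -0.24 to 0.23 without 1 array, and Tspan14 -0.0852 with array weights and -0.0364 to 0.19 without 1 array. Array weights, which called 2752 of all 19937 genes here, called 2 members, Gp9 (-0.46, limma adjusted p = 0.0194) and Itga2b (0.65, adjusted p = 0.0273), and leaving out 1 array called 0 to 1.

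Over all genes, wild type against empty vector gave 374 calls, 2576 with array weights, 4 without moderation, 587 with the 2 groups alone, 228 with the replicate block and 6 to 1033 without 1 array. G183S against empty vector gave 62 calls, then 1449, 6 and 10 with weights, without moderation and with the block, and 8 to 295 without 1 array. G183S against wild type gave 0, then 2752, 1 and 2, and 0 to 1113 without 1 array. The largest counts without 1 array came without G183S replicate 1 and the smallest against empty vector without empty-vector replicate 3.

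Platelet calls for wild type against empty vector were 6 with weights, 0 without moderation and 0 to 3 without 1 array; for G183S against empty vector 1 with weights and 0 to 0 without 1 array; and for G183S against wild type 5 and 0 to 2. Endothelial calls were 5, 0 and, with the 2 groups alone, 3, and 0 to 2 without 1 array; then 1 and 0 to 0; then 2 and 0 to 1.

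The correlation of Tspan14 with Pax5 was -0.89 by rank (adjusted p = 0.0615), -0.86 without the 2 extreme arrays (adjusted p = 0.25, exact permutation), -0.98 with group means removed (adjusted p = 0.0521) and -0.99 to -0.94 without 1 array. That of Cdh5 was 0.68 by rank, 0.0147 without the 2 extreme arrays, 0.90 with centred arrays (adjusted p = 0.0516), 0.96 with group means removed (adjusted p = 0.0521) and 0.73 to 0.96 without 1 array. That of Gp9 turned to -0.55 without the 2 extreme arrays, to -0.35 with group means removed, and ran from -0.36 to 0.34 without 1 array. The causes were not tested. Fewer arrays leave fewer permutations, and the number of arrays limits every value. Same-numbered arrays of different groups had deviations correlated at -0.16 to 0.51, over 0.1 in 3 of 9 pairs, and 4 of 10 arrays matched best with their own number. The highest values among all pairs of arrays from different groups were those of wild type with G183S at number 1 (0.51) and at number 3 (0.455). Whether these arrays share a source was not tested.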
